A study of Homo sapiens with 60 samples.

Results

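The 10 genes described here act in haem breakdown and in the storage, uptake, export and release of iron, and were measured by RNA sequencing in SW1783 (ATCC HTB-13), a line grown from a human astrocytoma. They were chosen by symbol, HMOX1, HMOX2, BLVRA, BLVRB, FTH1, FTL, TFRC, SLC40A1, BACH1 and NCOA4, and are 10 of the 60675 genes in the deposited count table. The cells were exposed for 24 h in Leibovitz's L-15 medium to 70% ethanol extracts at a low, a medium and a high dose, or to the DMSO vehicle. Coptidis Rhizoma was given at 0.56, 2.8 and 14 µg/mL, and Bupleuri Radix at 8.4, 42 and 210 µg/mL. The other extracts, each at 20, 100 and 500 µg/mL, were Cimicifugae Rhizoma, Aconiti Lateralis Radix Preparata, Citri Unshius Pericarpium, Zizyphi Fructus, and 2 formulas of several herbs, Banhasasim-tang and Yijung-tang. Per the series text, a high dose under 500 µg/mL is the extract's own 20% inhibitory concentration. There were 1 to 3 libraries per extract and dose, 3 vehicle libraries, and 60 in all. Nothing in the labels says that the libraries of a group came from separate cultures, so p-values measure the spread between these libraries, which may be technical.

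Haem oxygenases open the haem ring and release iron, carbon monoxide and biliverdin, and biliverdin reductases then turn biliverdin into bilirubin. HMOX1 is the inducible and HMOX2 the constitutive form. Freed iron is stored in ferritin, a shell of heavy (FTH1) and light (FTL) chains, and NCOA4 carries ferritin to the lysosome for breakdown. TFRC is the receptor that brings in transferrin-bound iron, and SLC40A1 (ferroportin) is the iron exporter. BACH1 is a haem-binding repressor that competes with NRF2 for the same DNA elements at HMOX1 and the ferritin genes.

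Ferritin, ferroportin and transferrin receptor mRNAs also carry iron-responsive elements, hairpins bound by iron regulatory proteins. The elements below are shown because they divide the members into mRNAs known to be held back in translation (element in the 5′ UTR) and an mRNA known to be stabilised (elements in the 3′ UTR) when iron is scarce. They come from GENCODE v29 transcripts on GRCh38, read 5′ to 3′ on the sense strand, with the 6-base loop in capitals.
FTH1, 5′ UTR, chr11:61967576-61967600, minus strand: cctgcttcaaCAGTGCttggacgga
FTL, 5′ UTR, chr19:48965337-48965361, plus strand: cttgcttcaaCAGTGTttggacgga
SLC40A1, 5′ UTR, chr2:189580663-189580687, minus strand: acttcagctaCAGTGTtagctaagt
TFRC, 3′ UTR, chr3:196050981-196051005, minus strand: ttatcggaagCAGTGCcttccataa
TFRC, 3′ UTR, chr3:196050577-196050601, minus strand: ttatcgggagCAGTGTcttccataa
TFRC, 3′ UTR, chr3:196050512-196050536, minus strand: gtatcggagaCAGTGAtctccatat
TFRC, 3′ UTR, chr3:196050465-196050489, minus strand: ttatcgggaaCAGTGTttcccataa
The search asked for a C, 5 bases, the loop CAGTGN with a last base other than G, and 5 bases that pair with the first 5, G with T allowed. It looked at the sense strand of coding transcripts only, and 214 of 19702 coding genes (1.09%) held such a sequence. HMOX1, HMOX2, BLVRA, BLVRB, BACH1 and NCOA4 held none by this rule.

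The libraries used held 15996157 to 30990264 counts, and the vehicle libraries 15996157 to 20858002. Levels are CPM, counts divided by library size after scaling by trimmed mean of M values, and log2 fold changes carry their standard error (SE). This scaling raised the values of some groups, among them high-dose Coptidis, where HMOX1 was 1.56 log2 above vehicle with it and 1.28 without it. For medium-dose Coptidis the HMOX1 values were 0.57 and 0.40. For Banhasasim-tang they were 2.57 and 2.43 at the high dose and 0.87 and 0.72 at the medium dose. A change is called at an adjusted p under 0.05 in edgeR's quasi-likelihood test, adjusted by Benjamini-Hochberg over 17680 genes. Aconiti replicate 1 at the high dose and Yijung-tang replicate 1 at the low dose stood far from the rest of their groups and were left out. In that order they read 867 and 77.6 CPM for HMOX1, 3883 and 3311 CPM for FTL, and 257 and 584 CPM for TFRC. Banhasasim-tang had 1 library per dose and low-dose Yijung-tang 1 after the exclusion, so these have values and no test. The sample names carry a set number that the vehicle libraries share with no extract, so set and treatment cannot be told apart against vehicle, while all doses of an extract share a set. Among astrocyte markers, the cells had VIM (4407 ± 194 CPM in vehicle, SD, n = 3), SOX9 (72.8 ± 2.78 CPM) and SLC1A3 (33.3 ± 2.00 CPM), while the defining markers GFAP and AQP4 were at 0.0411 ± 0.0711 and 0.0157 ± 0.0271 CPM. Erythroid markers summed to at most 0.343 CPM in any library, with HBG1 at 0 throughout.

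HMOX1 (chromosome 22, 35380361 to 35394214 on the plus strand, GRCh38) had the highest fold change of any member, with high-dose Aconiti and Cimicifugae, and its level rose with the dose of both and of Bupleuri, Coptidis and Yijung-tang. At the high dose it was 8.47-fold higher than vehicle with Aconiti, 8.28-fold with Cimicifugae, 4.62-fold with Bupleuri, 3.28-fold with Yijung-tang and 2.94-fold with Coptidis. It was near the vehicle level with every dose of Citri and slightly lower with the high dose of Zizyphi. With high-dose Coptidis the ferritin genes were further above vehicle than HMOX1 was (1.88 log2 for FTH1 and 1.85 for FTL, against 1.56). Against low-dose Coptidis, which shares its set, they did not exceed HMOX1 (1.55 for FTH1 and 1.35 for FTL, against 1.57).

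Cimicifugae gave 124, 124 and 139 CPM of HMOX1 at the low dose, 266, 247 and 286 CPM at the medium dose and 476, 464 and 501 CPM at the high dose. Aconiti gave 107, 99.4 and 110 CPM at the low dose, 262, 256 and 270 CPM at the medium dose and 499.6 and 484 CPM at the high dose. The vehicle libraries read 57.0, 59.5 and 56.2 CPM. Every library of these groups was above the highest vehicle library, and no dose of either extract overlapped another dose of it. Against vehicle, the log2 fold changes for Cimicifugae were 1.15 ± 0.05, 2.20 ± 0.05 and 3.05 ± 0.05 (SE) from the low to the high dose, with edgeR adjusted p of 4.67e-20, 1.59e-31 and 3.39e-37. For Aconiti they were 0.86 ± 0.05, 2.18 ± 0.05 and 3.08 ± 0.06 (SE), with edgeR adjusted p of 5.53e-15, 2.51e-31 and 1.78e-36. HMOX1 ranked 1 of 17680 genes by p in all 6 of these comparisons.

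Bupleuri gave 60.5, 54.6 and 64.3 CPM of HMOX1 at the low dose, 74.5, 77.4 and 76.8 CPM at the medium dose and 267, 277 and 260 CPM at the high dose. Coptidis gave 57.1 and 56.9 CPM at the low dose, 86.2 and 85.2 CPM at the medium dose and 172 and 167 CPM at the high dose. Yijung-tang gave 53.7 CPM in its low-dose library, 71.0 and 67.4 CPM at the medium dose and 194 and 188 CPM at the high dose. In these extracts the low-dose libraries lay at or near the vehicle range, and the medium and high doses stood above it. The log2 fold change of the high dose against vehicle was 2.21 ± 0.05 for Bupleuri, 1.56 ± 0.06 for Coptidis and 1.71 ± 0.06 for Yijung-tang (SE), with edgeR adjusted p of 2.00e-32, 2.38e-26 and 4.53e-26. At the medium dose it was 0.39 ± 0.06 for Bupleuri, 0.57 ± 0.06 for Coptidis and 0.25 ± 0.06 for Yijung-tang, all called in edgeR, and the Yijung-tang call was lost without replicate 1 of the medium dose (0.22, adjusted p = 0.0611).

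Banhasasim-tang gave 65.6 CPM of HMOX1 at the low dose, 105.5 CPM at the medium dose and 342 CPM at the high dose, with 1 library each and no test. The order over the 3 doses was the same as in the extracts with a called rise, and the high-dose value lay between those of Cimicifugae and Bupleuri.

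**Figure D1:**
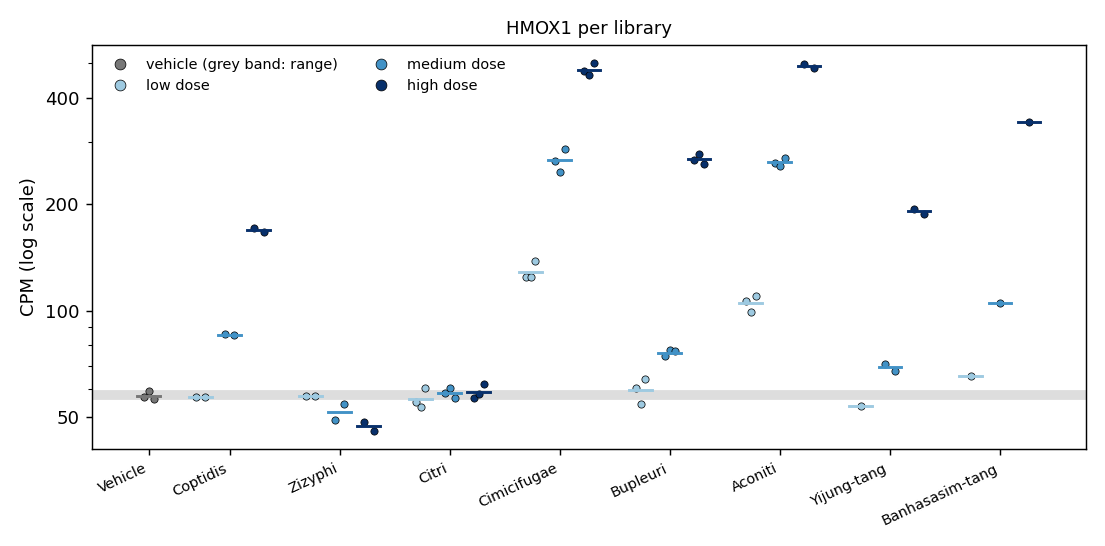
HMOX1 in CPM (log scale) for every library used, by extract, with vehicle on the left and the low, medium and high dose in order; points are libraries, bars are group means and the grey band is the vehicle range. Aconiti and Cimicifugae reach 484 to 499.6 CPM and 464 to 501 CPM at the high dose, Citri stays at 53.5 to 62.1 CPM, and high-dose Zizyphi lies at 45.9 to 48.6 CPM, below the vehicle band.

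Citri and Zizyphi differed from the rest. Citri gave 55.3, 53.5 and 60.4 CPM of HMOX1 at the low dose, 58.4, 60.4 and 56.7 CPM at the medium dose and 56.8, 58.2 and 62.1 CPM at the high dose. All 3 doses overlapped vehicle, and the high-dose change was 0.03 ± 0.06 log2 (edgeR adjusted p = 0.764). Zizyphi gave 57.3 and 57.4 CPM at the low dose, 49.0 and 54.7 CPM at the medium dose and 48.6 and 45.9 CPM at the high dose. High-dose Zizyphi was below vehicle by -0.30 ± 0.06 and below its own low dose by -0.28 ± 0.07 log2 (SE, edgeR adjusted p of 0.000574 and 0.00605). Without replicate 3 of the high dose, the difference between doses was -0.24 and was no longer called (adjusted p = 0.133).

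Compared between doses of one extract, which share a set, HMOX1 was higher at the high dose in 5 of 7 comparisons, as 169 of 17680 genes (0.956%) were in 5 or more. The log2 fold change was 2.23 ± 0.05 for Aconiti, 2.16 ± 0.05 for Bupleuri, 1.90 ± 0.05 for Cimicifugae, 1.57 ± 0.06 for Coptidis (each against the low dose) and 1.46 ± 0.06 for Yijung-tang against the medium dose (SE, edgeR adjusted p at most 8.79e-22).  HMOX1 ranked 1 by p for Cimicifugae and Aconiti, 2 for Yijung-tang, 8 for Bupleuri and 346 for Coptidis. From the low to the medium dose HMOX1 was also higher with Aconiti (1.32 ± 0.05), Cimicifugae (1.05 ± 0.05), Coptidis (0.59 ± 0.07) and Bupleuri (0.35 ± 0.05), called in edgeR in 4 of 6 comparisons. Of 17680 genes, 2 (0.0113%) were called higher in 4 or more of these. With Aconiti the medium and low doses differed in 9 of 17680 genes (0.0509%), and HMOX1 had the largest rise of them and was the only member called. The members called between these doses were 6 with Coptidis (13.6% of all genes), HMOX1 alone with Cimicifugae (0.385%) and with Bupleuri (0.368%), and 0 of 9 with Citri and with Zizyphi (0.00566%, 1 gene each).

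Extracts of the same set were compared at their high doses. Citri and Cimicifugae were both at 500 µg/mL, and HMOX1 averaged 59.1 CPM with Citri and 480 CPM with Cimicifugae, a log2 difference of -3.02 ± 0.05 (SE, edgeR adjusted p = 1.94e-37). Bupleuri at 210 µg/mL averaged 268 CPM and Aconiti at 500 µg/mL 492 CPM, a difference of -0.88 ± 0.05. Coptidis at 14 µg/mL averaged 169 CPM and Zizyphi at 500 µg/mL 47.2 CPM, a difference of 1.85 ± 0.07. The doses of the last 2 pairs differ, so these values compare the groups as treated and not the extracts at equal dose.

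FTL (chromosome 19, 48965301 to 48966878, plus strand) was higher in every library of all 24 extract groups, at 1181 to 5013 CPM, than in the vehicle libraries at 1005, 943 and 1012 CPM. It was the only member of which this held, and it held for 189 of 17680 genes (1.07%). FTL was called higher in all 20 tested comparisons with vehicle, as were 67 genes (0.379%). Already at the low doses the log2 fold change was 0.41 to 0.61 (edgeR adjusted p at most 2.94e-05), in 6 of 6 comparisons, as for 252 genes (1.43%). For that part of the difference, set and treatment cannot be told apart.

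The dose-dependent part of FTL was measured within extracts. Bupleuri gave 1531, 1375 and 1637 CPM at the low dose, 1669, 1728 and 1701 CPM at the medium dose and 3949, 3880 and 3698 CPM at the high dose. Coptidis gave 1435 and 1352 CPM at the low dose, 1904 and 2114 CPM at the medium dose and 3335 and 3753 CPM at the high dose. Yijung-tang gave 1307 CPM in its low-dose library, 1444 and 1471 CPM at the medium dose and 3295 and 3134 CPM at the high dose. In each of these extracts the high-dose libraries were clear of the lower doses, and Banhasasim-tang followed the same order with 1601, 2154 and 5013 CPM, the highest FTL value of the libraries used.

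High against low dose, FTL rose by 1.35 ± 0.06 log2 with Bupleuri, 1.35 ± 0.07 with Coptidis, 0.57 ± 0.06 with Cimicifugae, 0.46 ± 0.06 with Aconiti and 0.36 ± 0.06 with Citri, and by 1.14 ± 0.07 with Yijung-tang against its medium dose (SE, edgeR adjusted p at most 9.19e-06). That is 6 of 7 comparisons, and 55 of 17680 genes (0.311%) were called higher in 6 or more. Zizyphi was at -0.06 (adjusted p = 0.691). With Citri, FTL therefore rose (1679, 1803 and 1778 CPM at the high dose, against 1349, 1356 and 1405 CPM at the low dose) while HMOX1 did not pass the test. The order of extracts also differed between the genes: among the high doses with a test, FTL was highest with Bupleuri (1.95 ± 0.06 log2 above vehicle), Coptidis (1.85 ± 0.06) and Yijung-tang (1.69 ± 0.06), and lower with Cimicifugae (1.17 ± 0.06) and Aconiti (0.96 ± 0.06), which had the highest HMOX1. Within the set of Bupleuri and Aconiti, high-dose Bupleuri was above high-dose Aconiti by 1.00 ± 0.06 log2 for FTL (edgeR adjusted p = 6.08e-17) and below it for HMOX1.

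FTH1 (chromosome 11, 61959718 to 61967660, minus strand) varied more between libraries than FTL and rose with dose in the same extracts apart from Citri. Its mean was above that of vehicle in all 24 extract groups as well, by 0.15 to 2.14 log2, but 3 of them overlapped the vehicle range (Zizyphi high, Citri medium and Cimicifugae low). At the high dose it read 3667 and 3820 CPM with Coptidis, 2648, 2657 and 2570 CPM with Bupleuri, 2369 and 2480 CPM with Yijung-tang, 2232 and 2158 CPM with Aconiti, and 1948, 2060 and 2195 CPM with Cimicifugae. Vehicle read 885, 1034 and 1136 CPM. These groups stood clear of vehicle, whereas Citri at 1241, 1240 and 1416 CPM was close to it and Zizyphi at 1162 and 1083 CPM overlapped it.

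Against vehicle, FTH1 was called higher in 6 of 7 high-dose comparisons, with log2 fold changes of 1.88 ± 0.09 for Coptidis, 1.36 ± 0.08 for Bupleuri, 1.24 ± 0.09 for Yijung-tang, 1.10 ± 0.09 for Aconiti, 1.01 ± 0.08 for Cimicifugae and 0.34 ± 0.08 for Citri (SE, edgeR adjusted p at most 0.00092). Of all genes, 676 (3.82%) were called higher in 6 or more of these. High against lower dose, FTH1 rose in 5 of 7 comparisons, by 1.55 ± 0.10 log2 with Coptidis, 0.95 ± 0.08 with Bupleuri, 0.84 ± 0.10 with Yijung-tang (against medium), 0.60 ± 0.08 with Cimicifugae and 0.57 ± 0.09 with Aconiti (edgeR adjusted p at most 5.83e-06). Calls at the low dose (5 of 6, 0.29 to 0.52, where 3.00% of all genes were called higher in 5 or more) leaned on single libraries: the Citri call was lost without replicate 1 of vehicle (0.20) or replicate 3 of its low dose (0.24), and the Coptidis call without replicate 1 of vehicle (0.23) or either low-dose library (0.31 and 0.35). Replicate 1 of low-dose Cimicifugae, at 1074 CPM, lay inside the vehicle range, against 1504 and 1534 CPM in the other libraries of its group.

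The ferritin chains did not move in fixed proportion. The FTL to FTH1 ratio of CPM averaged 1.46 with high-dose Bupleuri (range 1.44 to 1.49), 1.35 with high-dose Citri (1.255 to 1.45) and 1.33 with high-dose Yijung-tang (1.26 to 1.39), against 0.879 with high-dose Aconiti (0.867 to 0.891). Vehicle averaged 0.979, with a wide range of 0.891 to 1.14. By scaled CPM, FTH1 and FTL together took 0.729% with high-dose Coptidis and 0.647% with high-dose Bupleuri, against 0.201% in vehicle. The high-dose Banhasasim-tang library was at 0.948%. These are shares of the scaled library size, not of the raw counts. Both genes have processed copies that can share reads: the 25 FTH1 copies in the table held 0.150% to 0.364% of the counts of FTH1 and its copies together, and the 16 FTL copies 0.0379% to 0.0964%. Adding the copies to their parent changed no call of FTH1 or FTL. BEST1 lies on the opposite strand over FTH1 and held 0.689% as many counts. No source used here states the strand setting of the counting, so the reads of the pair cannot be told apart.

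**Figure D2:**
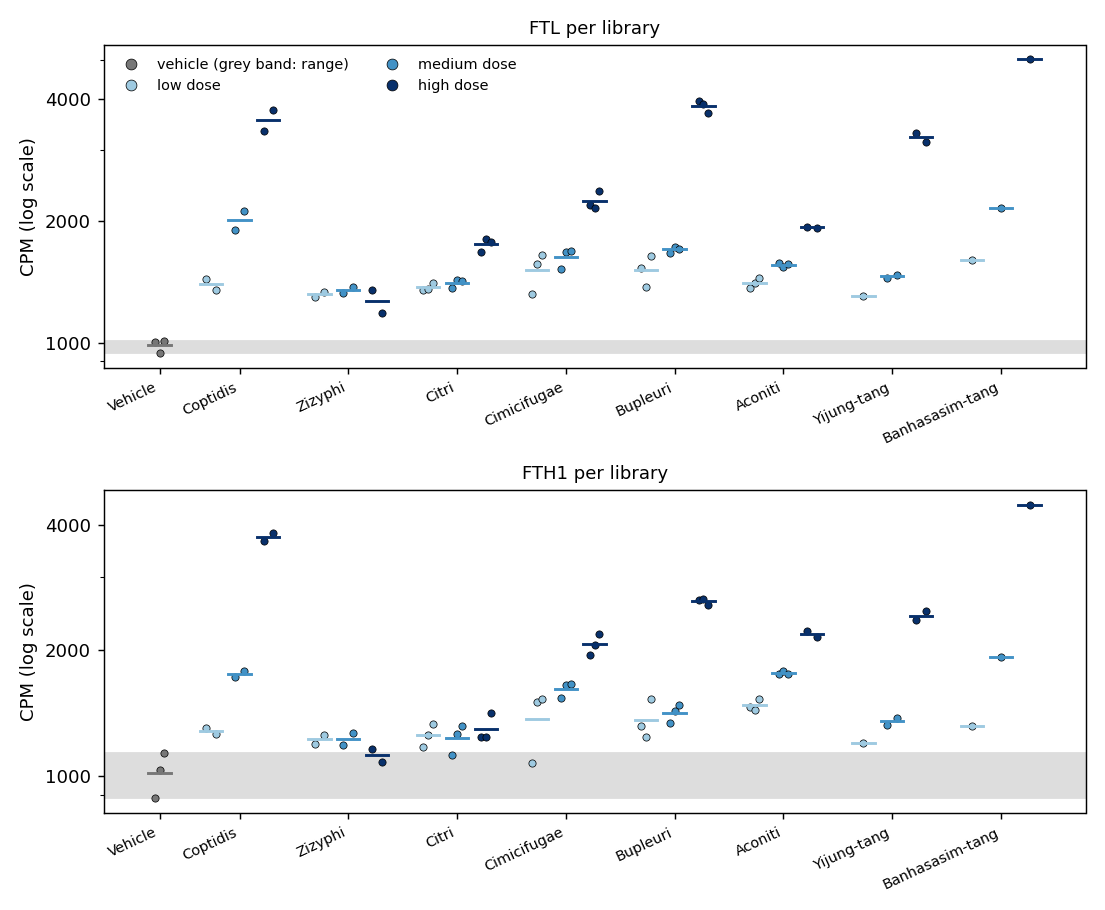
FTL (upper panel) and FTH1 (lower panel) in CPM (log scale) for every library used, laid out as for HMOX1, with bars at group means and the grey band at the vehicle range. Every extract library of FTL is above the band, 1181 CPM being the lowest, and the FTH1 band is wider, at 885 to 1136 CPM.

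Downstream of haem oxygenase, the biliverdin reductases were higher at the high than at the low dose of Coptidis and of Bupleuri. With Bupleuri the low and medium doses were alike, averaging 40.86 and 39.75 CPM for BLVRA and 29.97 and 30.33 CPM for BLVRB. Both genes were highest in the single high-dose Banhasasim-tang library, which has no test. BLVRB, which also reduces flavins, read 41.5 and 46.8 CPM with high-dose Coptidis and 42.4, 44.6 and 46.5 CPM with high-dose Bupleuri, against 24.1, 25.0 and 25.9 CPM in vehicle. Yijung-tang read 38.9 and 36.6 CPM at the high dose and Banhasasim-tang 49.9 CPM. None of these libraries overlapped vehicle. The log2 fold change against vehicle was 0.82 ± 0.08 for Coptidis, 0.82 ± 0.07 for Bupleuri and 0.58 ± 0.08 for Yijung-tang (SE, edgeR adjusted p at most 6.22e-08). High against low dose it was 0.74 ± 0.08 for Coptidis and 0.57 ± 0.06 for Bupleuri, with adjusted p of 8.21e-11 and 4.34e-10. Yijung-tang against its medium dose was at 0.29 ± 0.08 (edgeR adjusted p = 0.013), a call lost without replicate 1 of the high dose (0.24) or either medium-dose library (0.27 and 0.30).

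Cimicifugae and Aconiti, with the highest HMOX1, showed no such rise of BLVRB from the low to the high dose. High-dose Cimicifugae read 28.5, 28.4 and 31.0 CPM and its low dose 30.0, 29.8 and 30.2 CPM, a log2 difference of -0.03. High-dose Aconiti read 28.8 and 25.6 CPM and its low dose 31.6, 28.2 and 29.3 CPM, a difference of -0.12. Neither passed the test, and high-dose Bupleuri was above high-dose Aconiti by 0.72 ± 0.07 log2 (edgeR adjusted p = 2.80e-11).

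BLVRA, the main adult biliverdin reductase, read 52.0 and 51.0 CPM with high-dose Coptidis and 49.8, 47.5 and 52.4 CPM with high-dose Bupleuri, against 38.6, 40.1 and 38.3 CPM in vehicle. Banhasasim-tang read 43.6, 43.4 and 59.4 CPM from the low to the high dose. Against the low dose BLVRA rose by 0.47 ± 0.07 log2 with Coptidis and 0.29 ± 0.05 with Bupleuri (SE, edgeR adjusted p of 1.04e-07 and 2.98e-05). Without the scaling, BLVRA with Coptidis was at 0.13 log2 against vehicle at the high dose and -0.08 at the low dose. The Citri rise of 0.17 ± 0.06 (adjusted p = 0.0374) was lost in edgeR without replicate 2 of the high dose (0.12), replicate 1 of the low dose (0.14) or replicate 2 of the low dose (0.16).

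HMOX2 stayed between 32.8 and 41.0 CPM in every library used except with high-dose Coptidis, where it was 24.7 and 26.2 CPM. Vehicle read 36.3, 34.7 and 34.7 CPM. High-dose Coptidis was lower by -0.47 ± 0.05 log2 against vehicle and by -0.54 ± 0.06 against the low dose (SE, edgeR adjusted p of 3.40e-10 and 2.32e-11), opposite to HMOX1 in the same libraries. HMOX2 overlaps NMRAL1 on the opposite strand, which held 81.5% as many counts, so HMOX2 values are uncertain. NMRAL1 itself changed by -0.34 ± 0.07 between the high and low doses of Coptidis (edgeR adjusted p = 8.07e-05).

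BACH1, the repressor of HMOX1, rose most with Coptidis. It read 29.2 and 30.8 CPM at the low dose, 41.7 and 38.6 CPM at the medium dose and 79.3 and 73.0 CPM at the high dose, against 32.3, 29.1 and 32.0 CPM in vehicle. The high-dose Coptidis libraries were far above every other library, the next highest being the single high-dose Banhasasim-tang library at 44.6 CPM. The log2 fold change was 1.30 ± 0.06 against vehicle and 1.35 ± 0.07 against the low dose (SE, edgeR adjusted p of 1.09e-22 and 6.50e-22). Bupleuri was at 0.37 ± 0.06 against vehicle and 0.46 ± 0.06 against its low dose (edgeR adjusted p of 1.10e-06 and 4.21e-09). With Cimicifugae and Aconiti, BACH1 changed by 0.09 and 0.10 log2 between the high and low doses, and neither passed the test. The rise of 0.17 ± 0.06 with Citri was lost in edgeR without any of its libraries but replicate 3 of the high dose (0.12 to 0.18, adjusted p up to 0.227).

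TFRC (chromosome 3, 196027183 to 196082189, minus strand) differed from the rest in following the comparison with vehicle rather than the dose. The extract libraries other than high-dose Coptidis read 1159 to 1383 CPM, against 1467, 1455 and 1412 CPM in vehicle, so 23 of 24 extract groups lay wholly below the vehicle range (464 of 17680 genes, 2.62%, did so in 23 or more). It was called lower in 19 of 20 comparisons (166 genes, 0.939%, were in 19 or more), by -0.13 to -0.24 log2 (edgeR adjusted p at most 0.0307), at low, medium and high doses alike. Between the high and the lower dose of the same extract the change was -0.06 to 0.02 log2 in 6 of 7 comparisons, none called. Several of the vehicle comparisons were lost when a library was left out, among them Zizyphi at the high dose without replicate 2 (-0.12) and Coptidis at the low dose without replicate 2 (-0.12). Set and treatment cannot be told apart here, as for the low-dose part of FTL. The exception was Coptidis, whose high dose read 1689 and 1538 CPM against 1287 and 1333 CPM at its low dose, a rise of 0.31 ± 0.05 log2 (SE, edgeR adjusted p = 2.28e-07). Its rise of 0.16 ± 0.04 over vehicle was lost without replicate 2 (0.09, adjusted p = 0.126). Both rises depended on the scaling of the libraries. Without it, TFRC with Coptidis was at -0.12 log2 against vehicle at the high dose and -0.16 at the low dose.

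NCOA4 was lower with high-dose Coptidis, at 135 and 133 CPM against 163 and 169 CPM at its low dose and 170, 174 and 165 CPM in vehicle. The log2 change was -0.31 ± 0.04 against the low dose and -0.34 ± 0.04 against vehicle (SE, edgeR adjusted p of 2.00e-08 and 1.86e-10). The other 6 high against lower dose comparisons ranged from -0.06 to 0.00 and none was called. The single Banhasasim-tang libraries read 159.9, 145.5 and 129.5 CPM from the low to the high dose. In the other groups NCOA4 read 156 to 175 CPM, and by its mean vehicle was second highest of the 25 groups. Smaller differences from vehicle were called lower in edgeR with high-dose Yijung-tang (-0.12, adjusted p = 0.0128) and Bupleuri (-0.08, 0.0466) and with medium-dose Coptidis (-0.11, 0.0271) and Yijung-tang (-0.11, 0.0356), and none at the low dose. Each of these 4 calls was lost without any 1 of 2 to 5 libraries, replicate 2 of vehicle in all of them (-0.06 to -0.09, adjusted p of 0.0958 to 0.223).

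SLC40A1 was near the detection limit. It had no count in 40 of 58 libraries and at most 3 counts in any, 24 in all, and was not tested. A count of 0 allows up to 0.0930 to 0.185 CPM per library (3 counts, counting error only). A fall of the exporter, or a rise within this limit, was therefore not detectable at this depth. Per kilobase of exon, vehicle CPM was 1124 for FTL, 501.7 for FTH1, 183 for TFRC, 41.7 for NCOA4, 23.9 for HMOX1, 21.4 for BLVRA, 14.8 for BLVRB, 9.30 for HMOX2, 4.03 for BACH1 and 0.0047 for SLC40A1.

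**Figure D3:**
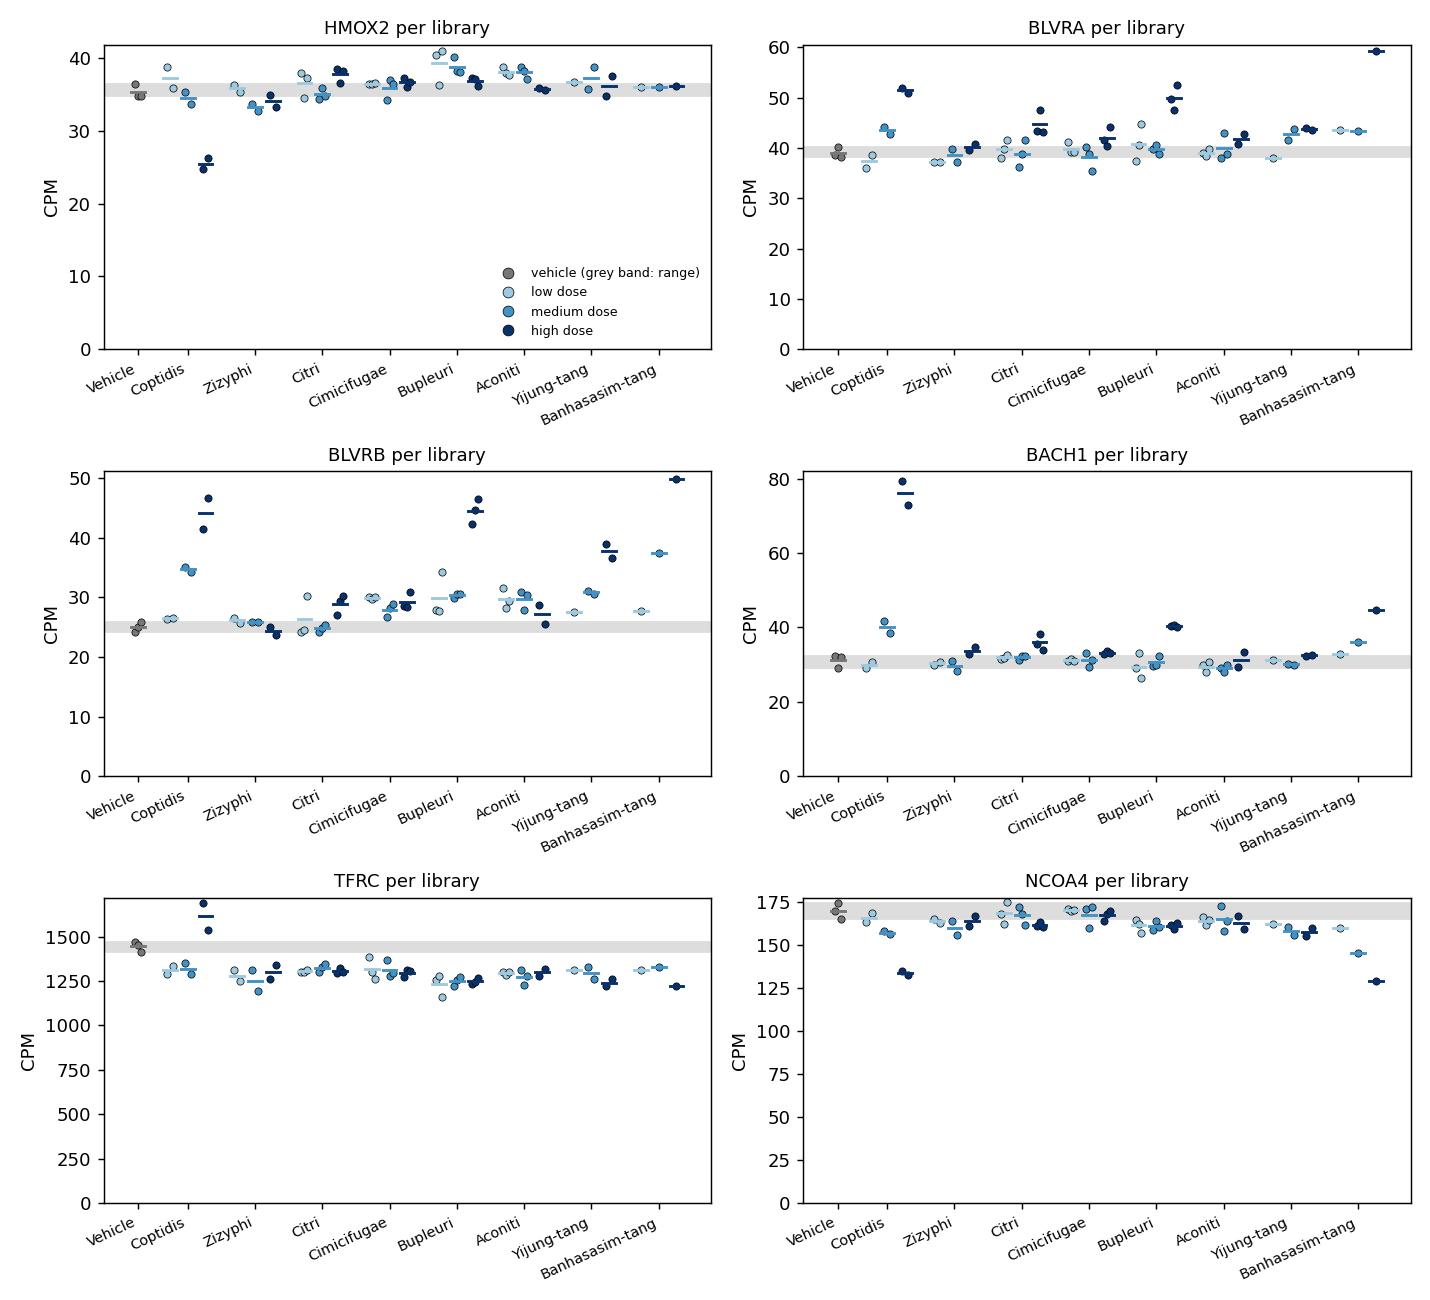
HMOX2, BLVRA, BLVRB, BACH1, TFRC and NCOA4 in CPM for every library used, laid out as for HMOX1 with axes from 0. The high-dose Coptidis libraries are low for HMOX2 (24.7 and 26.2 CPM) and NCOA4 (135 and 133 CPM) and high for BACH1 (79.3 and 73.0 CPM) and TFRC (1689 and 1538 CPM), while the other TFRC groups lie below the vehicle band at every dose.

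Counted over the 9 tested members, high dose against vehicle, 9 changed with Coptidis, where 66.6% of all genes were called, 8 with Bupleuri (39.6%), 6 with Citri (31.5%), 6 with Yijung-tang (30.8%), 5 with Cimicifugae (35.7%), 4 with Aconiti (27.6%) and 3 with Zizyphi (21.6%). The Citri count fell to 3 without replicate 2 of its high dose. At the medium dose 7 changed with Coptidis (25.9% of all genes), 6 with Bupleuri (22.7%), 6 with Yijung-tang (15.3%), 5 with Aconiti (26.2%), 4 with Cimicifugae (31.8%), 3 with Citri (17.9%) and 3 with Zizyphi (13.7%). Without 1 library the medium-dose count fell to 2 or 3 for Yijung-tang (replicate 2 or replicate 1 of the medium dose), to 1 for Citri (replicate 1 of vehicle) and to 1 for Zizyphi (replicate 3 of the medium dose). At the low dose 5 changed with Cimicifugae (20.8%), Aconiti (20.0%) and Bupleuri (26.9%), 3 with Citri (16.1%) and Coptidis (7.32%) and 2 with Zizyphi (11.8%), and the Coptidis count fell to 1 without replicate 1 of vehicle or either low-dose library. Since FTL and TFRC differ from vehicle at nearly every dose, these counts hold the part that cannot be told apart from the set.

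High against lower dose, within a set, 9 members changed with Coptidis (65.6% of all genes), 6 with Bupleuri (39.2%), 4 with Yijung-tang (9.16%), 3 with Citri (13.8%), 3 with Cimicifugae (10.7%), 3 with Aconiti (9.53%) and 1 with Zizyphi (7.40%). Without 1 library the Citri count fell to 1 (replicate 2 of the high dose, or replicate 1 or 2 of the low dose) and the Zizyphi count to 0 (replicate 3 of the high dose). With the compared groups fitted alone, the share of all genes was 1.91% for Zizyphi and 6.63% for Cimicifugae, with the same number of members called. With Coptidis most of the tested genes changed as well. With Cimicifugae and Aconiti the called members were the same 3, HMOX1, FTH1 and FTL, all higher. In the comparison of Citri with Cimicifugae at 500 µg/mL these 3 were also the called members (6.67% of all genes called), each lower with Citri: HMOX1 by -3.02, FTH1 by -0.67 ± 0.08 and FTL by -0.35 ± 0.06 log2 (SE, edgeR adjusted p at most 2.18e-05). High-dose Bupleuri and Aconiti differed in 6 of 9 members (32.0% of all genes), and high-dose Coptidis and Zizyphi in 9 of 9 (65.5%). The change from the low to the high dose itself differed between the extracts of a pair for 2 of 9 members with Citri and Cimicifugae (1.07% of all genes), 4 with Bupleuri and Aconiti (23.4%) and 9 with Coptidis and Zizyphi (55.3%).

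**Figure D4:**
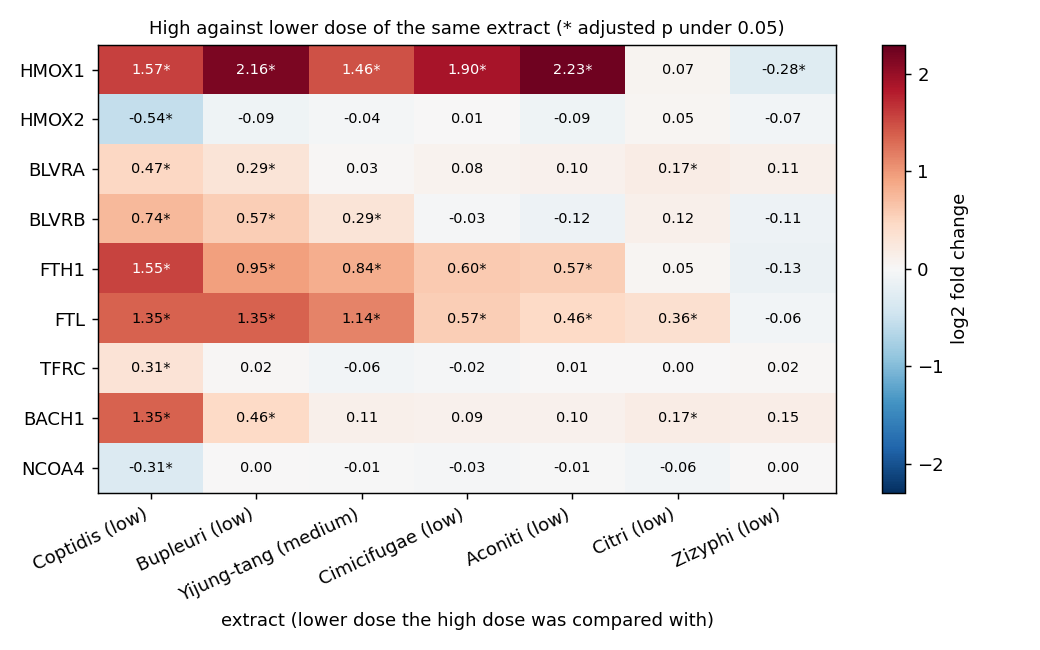
Log2 fold change of the 9 tested members (rows) at the high dose against the lower dose of the same extract (columns, lower dose in brackets), with red for higher and blue for lower at the high dose and an asterisk for an edgeR adjusted p under 0.05. HMOX1 has the largest value in 5 columns, from 1.46 to 2.23, all members are called with Coptidis, and no member is called higher with Zizyphi.

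The other genes of the pathway were taken from lists chosen along with the members and compared between high and lower dose. In these comparisons the shares of all genes called higher and lower were 33.2% and 32.4% with Coptidis, 20.6% and 18.6% with Bupleuri, 6.44% and 7.34% with Citri, 4.88% and 5.81% with Cimicifugae, 4.28% and 5.25% with Aconiti, 4.11% and 5.05% with Yijung-tang, and 3.12% and 4.28% with Zizyphi. Of 8 haem synthesis genes, ALAS1, the rate-limiting enzyme, was higher at the high dose in 6 of 7 comparisons with a lower dose of the same extract. Its log2 fold change was 0.80 ± 0.05 with Coptidis (107.8 ± 4.03 CPM at the high dose and 62.0 ± 0.437 CPM at the low dose, SD, n = 2 each), 0.75 with Bupleuri, 0.60 with Aconiti, 0.48 with Cimicifugae, 0.29 with Yijung-tang and 0.24 with Citri. PPOX, a later enzyme of the pathway, was higher in 4 of 7, by 1.04 with Coptidis, 0.49 with Zizyphi, 0.38 with Citri and 0.33 with Cimicifugae. With Coptidis 5 of 8 were lower, among them ALAD (-1.26), the second enzyme of the pathway, and 2 were higher, ALAS1 and PPOX, and the list's median was -0.27 log2 against -0.02 for all genes. In the other comparisons 1 to 3 of 8 were higher and 0 to 2 lower, with medians of -0.05 to 0.05 against 0.00 for all genes.

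Of 10 genes for haem transport and binding, 3 were higher and 5 lower with Coptidis (median -0.36 log2, all genes -0.02), 4 higher and 2 lower with Bupleuri (0.06), 4 higher with Aconiti (0.14), 3 higher with Cimicifugae (0.04) and 3 with Yijung-tang (0.17), 1 higher and 1 lower with Citri (0.01) and 1 higher with Zizyphi (-0.01). SLC48A1, which brings haem out of the lysosome, was higher with Cimicifugae (0.55), Yijung-tang (0.50) and Aconiti (0.47). FLVCR2 was higher with Bupleuri by 1.68 log2. SLC46A1, a haem and folate carrier, was lower with Coptidis (-0.87).

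Of 7 tested iron uptake genes other than TFRC, Coptidis lowered 5 and raised 2 (median -0.42 log2, all genes -0.02), and Bupleuri raised 4 and lowered 1 (median 0.21). The genes raised by Coptidis were the metal importers SLC39A14 (1.28) and SLC11A2 (0.94), and both were also higher with Bupleuri (0.43 and 0.70). SLC39A8 was lower with Coptidis (-1.02). Aconiti and Yijung-tang raised 2 each (medians 0.09 and 0.12), Cimicifugae changed 0 (-0.03; TFR2 at -0.34 was not called), Citri raised 1 and lowered 2 (-0.04) and Zizyphi lowered 2 (-0.11), SLC39A14 and STEAP3 both at -0.26. Of the 4 genes for ferroxidases and the hormone hepcidin, HEPHL1 alone was expressed enough to test, and it was lower with Bupleuri (-0.38).

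Of 6 iron sensing and chaperone genes, 4 were higher and 1 lower with Coptidis (median 0.43 log2, all genes -0.02), led by the iron chaperones PCBP1 (0.84) and PCBP2 (0.67) and by FBXL5 (0.44), which marks an iron regulatory protein for degradation. Bupleuri raised 3 and lowered 1 (median 0.08), Citri raised 2 and lowered 1 (-0.04), Cimicifugae changed 1 each way (-0.08), Aconiti raised 1 (0.04), and Yijung-tang and Zizyphi changed 0 (medians 0.00 and 0.03). Of 9 tested genes for mitochondrial iron and iron-sulphur clusters, 5 were higher and 1 lower with Coptidis (median 0.26), led by the scaffold ISCU (1.10) and the iron importer SLC25A28 (0.76). At most 1 of 9 was called in the other extracts, with medians of -0.03 to 0.02.

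The list of NRF2 and BACH1 partners, transcription factors together with KEAP1, moved most with Coptidis. There 5 of 6 tested genes were higher (median 0.96 log2, all genes -0.02). The small MAF proteins MAFF (2.47), MAFG (1.78) and MAFK (1.03), which pair with both NRF2 and BACH1, led this list, and NFE2L2, the gene of NRF2, was at 0.89. Bupleuri raised MAFG (0.75), MAFF (0.71) and MAFK (0.29), and Aconiti raised MAFF (0.69), MAFK (0.29) and MAFG (0.25). KEAP1, which holds NRF2 back, was called with Zizyphi only, lower by -0.21, and the difference from the other extracts was not tested. The count was 3 of 6 higher with Cimicifugae, Bupleuri and Aconiti (medians 0.10, 0.12 and 0.15), 2 with Citri (0.12), 1 with Yijung-tang (-0.01) and 1 higher and 1 lower with Zizyphi (0.07).

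Of the 12 listed targets of NRF2 or BACH1 outside the members, Yijung-tang raised 12 (median 0.43 log2, all genes 0.00) and Cimicifugae 11 (0.33). Aconiti raised 9 (0.36) and Citri 5 (0.09), and none was lower with Yijung-tang, Cimicifugae, Aconiti or Citri. Bupleuri raised 8 and lowered 2 (0.39), Coptidis raised 5 and lowered 3 (0.05) and Zizyphi raised 3 and lowered 1 (0.13). The cystine carrier SLC7A11 rose by 1.23 log2 with Coptidis, 0.94 with Bupleuri, 0.93 with Yijung-tang, 0.80 with Aconiti and 0.66 with Cimicifugae, and the quinone reductase NQO1 by 0.72 with Yijung-tang and 0.67 with Cimicifugae. The autophagy receptor SQSTM1 rose most with Bupleuri (1.84) and Coptidis (1.42), as FTL did, and fell with Zizyphi (-0.47). Targets split with Coptidis: GCLC, the catalytic subunit of glutathione synthesis, rose by 1.78, while AKR1B10 was lower by -2.08 and the partner subunit GCLM by -0.61. AKR1B10 was lower with Bupleuri as well (-1.08).

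**Figure D5:**
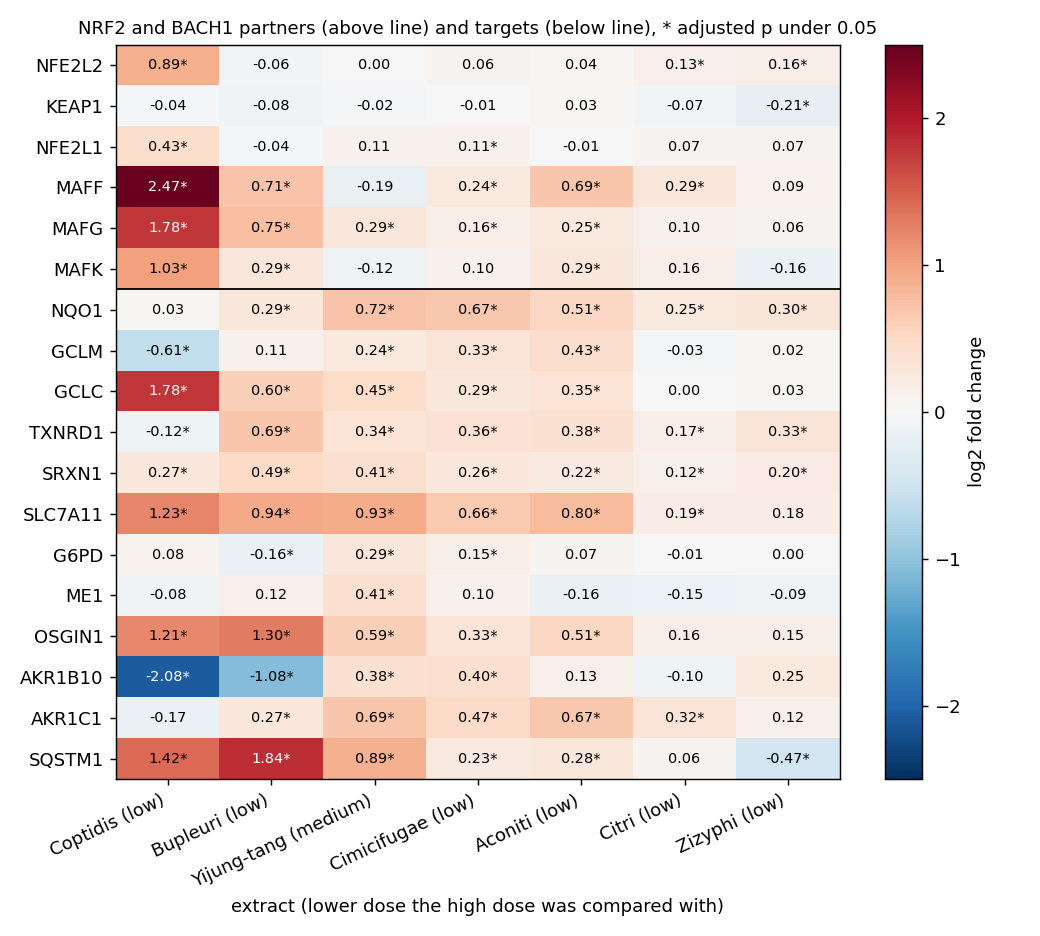
Log2 fold change at the high dose against the lower dose of the same extract (columns) for the tested partners of NRF2 and BACH1 (6 rows above the line) and their targets outside the members (12 rows below), with red for higher and blue for lower at the high dose and an asterisk for an edgeR adjusted p under 0.05. Yijung-tang, Cimicifugae and Aconiti have 12, 11 and 9 targets called, all higher, while Coptidis has MAFF at 2.47 and AKR1B10 at -2.08.

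Of 7 tested genes of ferroptosis, the iron-dependent form of cell death, Coptidis raised 5 and lowered 2 (median 0.41 log2, all genes -0.02). CHAC1, which breaks down glutathione, rose by 2.35 and AIFM2, which guards against lipid peroxidation, by 1.46, while LPCAT3 was lower by -1.43. Yijung-tang raised CHAC1 (1.25) and AIFM2 (0.50) and lowered PTGS2 (-0.34), and Aconiti raised PTGS2 (0.82) and CHAC1 (0.50). Bupleuri raised AIFM2 (0.71) and ACSL4 (0.43) and lowered 2, among them LPCAT3 (-0.49), with a median of 0.07. Cimicifugae raised AIFM2 (0.29), Citri lowered CHAC1 (-0.40), and no gene of the list was called with Zizyphi. Medians were 0.07 for Yijung-tang, 0.13 for Aconiti, 0.02 for Cimicifugae, -0.06 for Citri and -0.02 for Zizyphi.

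Across the mean log2 CPM of the 25 groups, centred on each gene's mean, the genes whose pattern was closest to HMOX1 were FTH1 (root mean square difference 0.75), BEST1 (0.75), IGFBP1 (0.80), the FTH1 copy FTH1P10 (0.81), FTL (0.82) and PANX2 (0.83), against a median of 1.08 over 13988 genes. None was close. FTH1 was 1.01 log2 above vehicle with high-dose Cimicifugae where HMOX1 was 3.05 above it. With high-dose Coptidis FTH1 was 1.88 above vehicle and HMOX1 1.56, but against low-dose Coptidis they were at 1.55 and 1.57. FTL had near neighbours, its copy FTLP3 (0.15), FTH1 (0.17), OSGIN1 (0.20), SQSTM1 (0.21), BEST1 (0.23) and NPAS2 (0.23), against a median of 0.57. BEST1 lies over FTH1 on the opposite strand and the reads of the pair cannot be told apart, so its likeness to HMOX1 and FTL is uncertain. Doses of an extract share a set, so the groups are not independent and these values describe likeness only.

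Markers of other cell types were read in the same libraries. All libraries came from the SW1783 line, so these values are levels of the named genes and do not count cells of a type. Of 7 microglia and macrophage markers, TYROBP was at 0 throughout and CD68, a lysosomal protein, made up most of the sum. This was 268 to 280 CPM with high-dose Coptidis, 251.5 to 276 CPM with Bupleuri, 228 to 229 CPM with Yijung-tang, 217 to 235 CPM with Cimicifugae, 206 to 210 CPM with Citri, 177.5 to 180.2 CPM with Aconiti and 155 to 175 CPM with Zizyphi, against 146 to 153 CPM in vehicle. In all 24 extract groups, low doses included, this sum was above the vehicle range, as FTL was, and Aconiti, with the highest HMOX1, had one of the lower high-dose sums. The list did not move as a whole. Over all libraries used PTPRC averaged 10.5 CPM, against 13.3 ± 1.02 CPM in vehicle (SD, n = 3), and CSF1R 3.96 CPM, against 3.51 ± 0.341 CPM. Of 8 astrocyte markers, 3 had a mean over 1 CPM, and the sum, nearly all VIM, was 7973 to 7993 CPM with high-dose Coptidis, 4191 to 4314 CPM with high-dose Bupleuri and 3553 to 3909 CPM with high-dose Cimicifugae, against 4326 to 4718 CPM in vehicle. Over all libraries used, neuron markers (4) summed to 38.7 to 77.1 CPM, endothelial markers (5) to 22.7 to 38.4 CPM, oligodendrocyte markers (4, MOG at 0) to 5.30 to 13.7 CPM and hepatocyte markers (4) to at most 0.279 CPM. Whether these marker genes are linked to the changes of HMOX1 and the ferritin genes was not tested.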

How the data were processed

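RNA from SW1783 cells was sequenced as 100 bp reads. The authors deposited expected counts for each gene. The submitters' processing notes name RSEM 1.3.3, STAR 2.7.3a, Trim Galore 0.6.5, FastQC 0.11.9 and the build hg38. No source used here states the annotation or the strand setting. Of the values, 9.18% were not whole, and all were rounded. Vehicle held 0.1% DMSO per the sample labels and 2% per the series text. Water extracts and the positive controls named in the series text were not analysed here.

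Of 60 libraries, 58 were used and 54 entered one fit of 21 groups in edgeR 4.0.16 (R 4.3.3), with filterByExpr (minimum count 10, 17680 genes), TMM factors and quasi-likelihood tests for 39 comparisons, adjusted by Benjamini-Hochberg within each at 0.05. SLC40A1 failed the filter. SE is the absolute log2 fold change over the square root of F. DESeq2 1.42.0, other scalings, filters, groupings and left-out libraries were alternatives. No libraries were identical. On simulated counts for high-dose Cimicifugae against vehicle (17680 genes, 50 changed at each fold), 74% of 2-fold and 28% of 1.25-fold changes were recovered, with 3.91% false calls.

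All members were named; from the other lists, up to 3 genes per list and comparison with the largest called change between high and lower dose were named, with a few further values (NFE2L2, GCLM and SLC7A11 with Coptidis, SLC7A11 with Bupleuri and TFR2 with Cimicifugae) chosen after they were seen. The members and lists were chosen with earlier results of these data known. Positions are from GENCODE v29 (GRCh38).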

Additional observations from a re-analysis of the deposited data

Results flagged for a closer look

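The rise from the low to the high dose differed between extracts of the same set for the following members, each by a test of the difference itself (interaction term in the edgeR fit, adjusted over 17680 genes). At equal doses (20 and 500 µg/mL), the change with Citri minus that with Cimicifugae was -1.83 log2 for HMOX1 (adjusted p = 1.01e-22) and -0.54 for FTH1 (0.00534), where 1.07% of all genes passed. HMOX1 had the smallest p of all genes in that test.

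For Bupleuri minus Aconiti (8.4 to 210 against 20 to 500 µg/mL), the difference was 0.88 for FTL, 0.69 for BLVRB, 0.37 for FTH1 and 0.36 for BACH1 (edgeR adjusted p of 2.54e-11, 3.22e-07, 0.0189 and 0.00109), where 23.4% of all genes passed. HMOX1 was at -0.06 in the same test and did not pass (adjusted p = 0.608). The FTH1 difference was lost without replicate 3 of high-dose Aconiti (0.35) or replicate 2 of low-dose Bupleuri (0.31).

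For Coptidis minus Zizyphi (0.56 to 14 against 20 to 500 µg/mL), all 9 tested members differed, where 55.3% of all genes did. The differences were 1.86 for HMOX1, 1.68 for FTH1, 1.41 for FTL, 1.20 for BACH1, 0.84 for BLVRB, 0.36 for BLVRA, 0.29 for TFRC, -0.30 for NCOA4 and -0.47 for HMOX2 (edgeR adjusted p at most 0.00169). Doses differ in the last 2 pairs, and no group has enough libraries for a check of outlying values.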

How the results depend on the processing

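A count of members called was taken to hold when it was within 1.5 times the main count. A high-dose value of HMOX1 or FTL held when it kept its call and, where called, its direction. By this rule 42 of 42 held under each of DESeq2 size factors, the DESeq2 test and no filter on low counts. The same was true of fits of the compared groups alone and the replicate block, and 14 of 14 held with the copies summed. With both divergent libraries kept, 29 of 42 held. No called value changed sign, but calls were lost for HMOX1 in high-dose Zizyphi against vehicle (-0.29) and against its low dose (-0.28). For FTL, calls were lost in Zizyphi against vehicle (0.35), Cimicifugae high against low dose (0.57) and Citri high against low dose (0.36). The members called against vehicle were then 4 for Bupleuri, 3 for Cimicifugae, 3 for Yijung-tang, 1 for Citri and 0 for Zizyphi, and high against low dose 1 for Cimicifugae, 0 for Citri and 0 for Zizyphi. The cause was not tested. Leaving out 1 library at a time, 213 of 219 held: HMOX1 in high against low Zizyphi ranged from -0.32 to -0.24, and the members called from 1 to 3 for Citri and 0 to 1 for Zizyphi high against low dose, and from 3 to 6 for Citri high against vehicle. Among the other results (single members and lower-dose counts), 97 lost their call and 20 counts moved with both divergent libraries kept, and 83 calls were lost and 10 gained over all fits that left out 1 library. The genes called over the whole table moved by over 1.5 times in 31 of 39 comparisons with both divergent libraries kept, for example to 277 to 8337 against 3819 to 11777 for high dose against vehicle, 27 to 7749 against 1308 to 11599 for high against lower dose and 8 to 139 against 1295 to 4758 for low dose against vehicle. They did so in 9 comparisons with the compared groups alone, 6 without a filter, 3 with the DESeq2 test, 2 with the block and 1 with DESeq2 size factors. Many were medium against low dose, where the main test called 1 to 2398 genes (for Aconiti 9, against 117 without a filter and 23 with its groups alone). With the groups alone, high against low dose gave 337 for Zizyphi (against 1308) and 1172 for Cimicifugae (against 1890), and low dose against vehicle 1965 for Bupleuri (against 4758) and 1953 for Coptidis (against 1295). Libraries with the same replicate number deviated from their group means with a correlation of at most 0.04 between vehicle and extracts. Within a set it was over 0.1 in 2 of 117 such pairs and in 0 of 202 pairs with other numbers. The labels do not say what the numbers mark, so these values cannot tell whether they pair the samples. The replicate block gained 5 calls and lost 0 elsewhere. Depth limits SLC40A1, and simulated 1.5-fold changes were recovered in 54% of genes for high-dose Cimicifugae and 72% for high-dose Coptidis against vehicle. Each fold was simulated in 50 genes only, and for Coptidis the 2-fold recovery was 66%, below the 1.5-fold one. In the data 35.7% and 66.6% of genes were called, so recovery there may differ.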
